A study of Rattus norvegicus with 10 samples.

Results

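The cytosolic ribosomal protein genes encode the proteins of the ribosomes that translate nuclear mRNAs in the cytoplasm. They were taken as the genes with an mRNA probe on the array whose RefSeq symbol is Rpl or Rps followed by a digit, or Rplp0, Rplp1, Rplp2 or Rpsa, without S6 kinases, pseudogenes and unnamed loci. The rule found 76 genes with 78 probes, out of 13888 named genes and 15323 mRNA probes. Of these, 44 belong to the large subunit, 29 to the small subunit and 3 to the stalk. A probe entered the test when the scanner software marked more than 50% of its spots as clearly brighter than background on 5 or more of the 10 arrays, and 75 of the 76 genes had such a probe. The exception was Rpl11, a large subunit protein that binds Mdm2, whose probe was not well above background on any array (intensities of 1.71 to 5.34).

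The RNA came from the lumbar enlargement of the spinal cord of male Sprague Dawley rats, with 1 one-colour array per rat. Morphine at 10 μg in 10 μl was given into the intrathecal space of the 5 MT (morphine tolerance) rats, 1 to 5, with 2 injections on each of 7 days. The 5 NS (normal saline) rats, 6 to 10, were given 10 μl of saline on that schedule. By the study's methods, tissue was taken on the following day, an hour after a further morning injection of morphine or saline. The methods call the rats adult. Their exact age and the level of tolerance of each of these 10 rats are not given in the sources used here. All rats carried the intrathecal injections.

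A ribosome has a small subunit, which reads the mRNA, and a large subunit, which joins amino acids and holds the exit tunnel and the flexible stalk that recruits elongation factors. The ribosomal proteins are made in near equal numbers, and their mRNAs start with a run of pyrimidines, the 5′ terminal oligopyrimidine (TOP) motif, through which mTORC1 signalling sets how strongly they are translated. They are among the most abundant mRNAs of neurons and glia, and several serve as reference genes in PCR work.

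A C or T run at the annotated start is shown here because most of the matched genes have one and the rule did not use it. RefSeq promoter entries of GRCr8 were matched for 61 of the 76 genes. A run of at least 8 bases of C or T, overlapping the 5 bases on either side of the annotated start, was found in 37 of the 61 (60.7%), against 9.06% of all 33469 promoter entries. Each sequence below holds the 15 bases before the annotated start and the first 15 bases from it, in the sense of the gene. Capitals mark a C or T run of at least 8 that overlaps the 5 bases on either side of the start. The first 6 are genes with such a run that recur in the results, and the last 3 are genes with large differences between arrays and no run at the start the table gives.
Rps24, chr16:96502-96531, plus strand: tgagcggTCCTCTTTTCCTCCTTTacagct
Rpl35, chr3:43165907-43165936, minus strand: cgCCCCTTCCTCTTTCTCTCgaaccgggcg
Rps26, chr7:1643390-1643419, minus strand: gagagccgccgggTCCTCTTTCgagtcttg
Rpl13a, chr1:104748899-104748928, minus strand: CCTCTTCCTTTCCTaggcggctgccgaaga
Rplp1, chr8:71290858-71290887, minus strand: gcaggcgcatgtgaTCCTTTCCTCagctgc
Rpl10, chrX:157205835-157205864, plus strand: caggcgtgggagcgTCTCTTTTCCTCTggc
Rpl6, chr12:41011676-41011705, minus strand: tatttttacatcactagatggcgggtgaaa
Rplp2, chr1:205975906-205975935, plus strand: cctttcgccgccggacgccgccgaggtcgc
Rpl41, chr7:1563483-1563512, minus strand: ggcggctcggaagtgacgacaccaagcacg
The start in the table was the outermost annotated base of the gene for 28 of the 61 genes. A missing run therefore says only that no such run overlaps the 5 bases on either side of this start. A marked run is not shown to begin the mRNA, and that of Rpl13a ends before the annotated start. The motif CCGGAA, searched on both strands of the 300 bases of an entry, was present in 45.9% of the genes' promoters and in 15% of all entries. The median difference between MT and NS was -0.01 on the log2 scale for the 37 tested genes with a run of at least 8 and 0.02 for the 23 tested genes with a shorter one, and without the 2 arrays of slide 3, described next, the order turned, to 0.06 and 0.02.

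Arrays that share a scan time were taken to lie on 1 slide, which gave 3 slides. Slide 1 held MT rats 1, 3, 4 and 5, slide 2 held MT rat 2 and NS rats 6, 7 and 10, and slide 3 held NS rats 8 and 9. Slide 3 was the dimmest, with 58.6% and 63.8% of its spots clearly brighter than background against 77.4% to 83.9% on the other arrays. Slide 2 is the one slide that held both groups. The values below are quantile-normalized log2 intensities, a difference of 1 is a doubling, and adjusted p values are Benjamini-Hochberg values from limma over the 20284 RNAs tested. A marker list of neutrophils moved with the group. It holds S100a8 and Np4, which the paper lists among its up-regulated mRNAs from these same arrays, so its shift is not independent of that result. Of its 5 genes on the array 4 were tested and all 4 had positive differences (median 1.11), 0 with an adjusted p below 0.05, and the mean deviation of the list lay between 0.42 and 0.66 in MT rats and between -0.72 and -0.36 in NS rats, with Mmp8 not well above background. Among the other lists, all 5 microglia markers had negative differences (median -0.34), as did the 3 tested markers each of lymphocytes (-0.01) and Schwann cells (-0.13), and all 4 tested motor neuron markers (0.29) and all 3 tested fibroblast markers (0.39) had positive ones. None of these passed the adjusted threshold in limma, and in each of these 5 lists the mean deviations of MT and NS rats overlapped. The part of these cell types in the values of the ribosomal protein genes was not tested. The markers of neurons, astrocytes and oligodendrocytes that were tested gave signals of up to 16.60, 16.30 and 17.12. In whole tissue, fewer cells of a type and less RNA per cell cannot be told apart.

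No ribosomal protein gene passed the test for a difference between MT and NS. Of the 75 genes tested, 0 passed an adjusted p of 0.05, a threshold that 0.197% of all RNAs tested passed, and 0 met the study's criteria of a fold above 1.5 with an unadjusted P below 0.05, which 2.74% of all RNAs met. At an unadjusted P below 0.05 alone, 3 genes were higher in MT, Rpl6, Rpl41 and Rpl35, and 1 was lower, Rps24. These 4 genes are 5.33% of the 75, and the share of all RNAs was 16.4%, with 6.84% higher and 9.53% lower in MT. Of the 75 differences, 36 were above 0 and 39 below, and this split moved with the arrays and the model used. It was 50 and 25 when slide 3 was left out. With a fixed block for the slide it was 21 and 54, and with a random block 28 and 47. The median of the 75 differences was -0.01 on the log2 scale (middle 50% from -0.08 to 0.09), beside 0.00 over all RNAs (-0.14 to 0.16). Without slide 3 the medians of the genes and of all RNAs were 0.04 and 0.01. These 2 medians were -0.05 and 0.01 with the fixed block, and -0.03 and 0.01 with the random block.

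In the fit without a slide term, the intervals were narrow for most of the genes. The 95% interval of the difference lay within 1.5-fold in both directions for 72 of the 75 genes (96%), against 64.9% of all RNAs. Rpl6, Rps23 and Rpl27l2 were the 3 whose intervals reached further. This fit treats the arrays of a slide as independent, while slide 1 held MT rats alone and slide 3 NS rats alone. The fit with a random block put the correlation of arrays within a slide at 0.46. The intervals do not cover a difference between slides. The median absolute difference was 0.09 for the genes and 0.15 for all RNAs, and the median standard error was 0.09 and 0.13. Most of these probes were bright, which is a property of the probe as well as of the transcript: 56 of the 75 had a mean log2 signal above 14. Among RNAs other than ribosomal protein genes with a signal above 14 (n = 557), the median absolute difference was 0.09, the median standard error 0.09, and 87.4% of the intervals lay within 1.5-fold, against 96.4% for the 56 bright ribosomal protein genes. An unadjusted P below 0.05 was reached by 12.9% of these other bright RNAs and by 5.36% of the 56 genes.

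**Figure D1:**
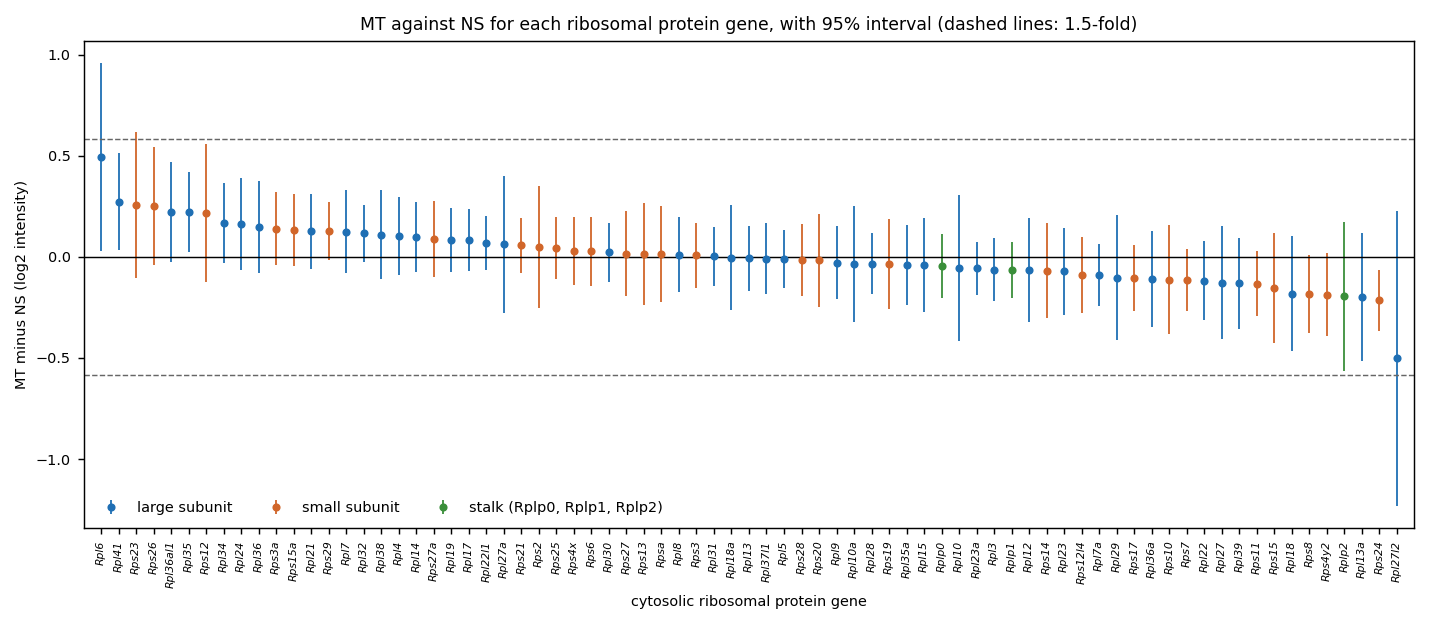
The difference between MT and NS in log2 intensity (y axis) for each of the 75 ribosomal protein genes tested (x axis, from highest to lowest), with the 95% interval from limma as a line, n = 5 rats per group. Colours give the subunit and dashed lines a 1.5-fold difference; the points run from -0.50 for Rpl27l2 to 0.50 for Rpl6, and the intervals of Rpl6, Rps23 and Rpl27l2 alone cross a dashed line.

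The differences of both subunits were centred near 0. In the large subunit, without the stalk, 20 of 43 tested genes were above 0 and 23 below, with a median of -0.01 and a range from -0.50 to 0.50. In the small subunit, 16 of 29 were above 0 and 13 below, with a median of 0.02 and a range from -0.22 to 0.26. All 3 stalk genes had negative differences, of -0.20 for Rplp2, -0.06 for Rplp1 and -0.05 for Rplp0, and none passed a test (adjusted p in limma of 0.58, 0.62 and 0.77). With the arrays scaled to their 75th percentile, which moves the median of all RNAs to 0.07, Rplp2 came to -0.06, Rplp1 to 0.03 and Rplp0 to 0.00.

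Rpl6, a large subunit protein, had the largest positive difference. Its log2 intensities were 15.15, 14.85, 15.19, 15.06 and 15.04 in MT rats 1 to 5, and 14.95, 14.87, 13.99, 14.07 and 14.94 in NS rats 6 to 10. NS rats 8 and 9 lay far below all other rats, and the other 3 NS rats overlapped the MT range. The difference was 0.50 (SE 0.21, adjusted p = 0.28 in limma), and it fell to 0.15 (SE 0.09, adjusted p = 0.40) without the 2 rats of slide 3. Within slide 2, MT rat 2 was lower than the mean of the 3 NS rats, by a difference of -0.07.

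Rpl41, a short and strongly basic peptide of the large subunit, had the second largest positive difference and a different pattern over the rats. Its values were 14.02, 13.60, 14.15, 13.80 and 13.64 in MT rats 1 to 5, and between 13.53 and 13.60 in the 5 NS rats. The MT rats were spread widely (SD 0.24, n = 5) and the NS rats hardly (SD 0.03, n = 5), and the lowest MT rat lay just above the highest NS rat. The difference was 0.27 (SE 0.11, adjusted p = 0.26 in limma) with all rats and 0.29 without slide 3 (SE 0.14, adjusted p = 0.29), so it did not rest on those 2 arrays. Within slide 2 it was 0.04. Rpl41 and Rps29, a small subunit protein chosen here after its values were seen, were the 2 genes of 75 (2.67%) whose MT values all lay above all NS values, a pattern that 2.35% of all RNAs had. The difference of Rps29 was 0.13 (SE 0.06), and no gene had the opposite pattern, which 3.29% of all RNAs had.

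Rpl35, which lies near the exit tunnel of the large subunit, read 14.65, 14.44, 14.79, 14.48 and 14.58 in MT rats 1 to 5 and 14.46, 14.49, 14.24, 14.23 and 14.41 in NS rats 6 to 10. MT rats 1, 3 and 5 lay above every NS rat, MT rats 2 and 4 lay among the NS rats, and NS rats 8 and 9 were the lowest of all. The difference of 0.22 (SE 0.09, adjusted p = 0.27 in limma) became 0.13 without slide 3 and -0.01 within slide 2.

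Rps24, a small subunit protein, was the gene with the smallest unadjusted P. It read 15.30, 15.44, 15.31, 15.28 and 15.26 in MT rats 1 to 5, and 15.57, 15.53, 15.64, 15.53 and 15.39 in NS rats 6 to 10. The groups overlapped only through MT rat 2 and NS rat 10, which share slide 2. The difference was -0.22 (SE 0.07, adjusted p = 0.18 in limma), which is -13.9% on the linear scale and missed the adjusted threshold. It was -0.19 without slide 3 (adjusted p = 0.24) and -0.06 within slide 2, and it kept its sign in every fit that left out 1 rat, from -0.25 to -0.19.

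**Figure D2:**
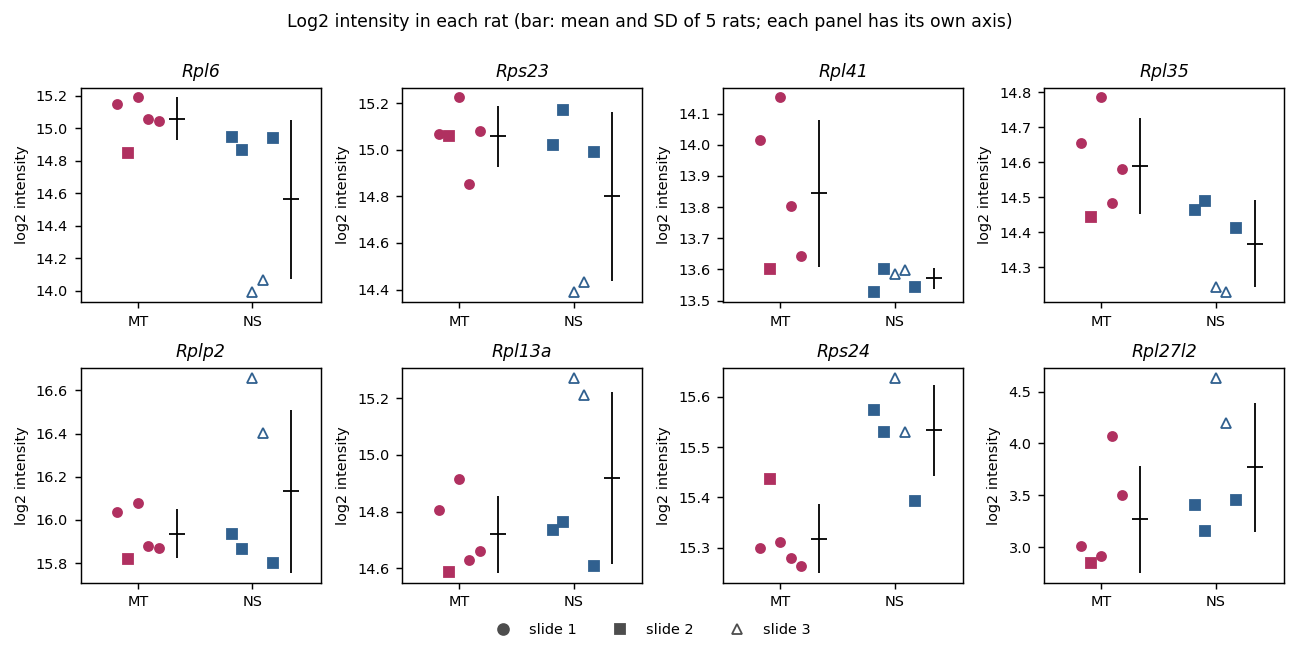
Log2 intensity (y axis, a separate range in each panel) of 8 ribosomal protein genes in each MT and NS rat (x axis), with the mean and SD of the 5 rats of a group beside the points. Circles are slide 1, squares slide 2 and open triangles slide 3; in Rpl6, Rps23 and Rpl35 the triangles are the lowest points, in Rplp2, Rpl13a and Rpl27l2 the highest, and in Rpl41 they lie with the other NS rats.

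The largest differences in these genes ran between arrays of the NS group. NS rats 8 and 9 of slide 3 both lay outside the range of the other 8 rats in 38 of the 75 genes (50.7%), above it in 21 (22.7% of all RNAs were above) and below it in 17 (18% of all RNAs were below). Over all RNAs the share outside in either direction was 40.7%. With a signal above 14 it was 55.4% of the 56 ribosomal protein genes and 54.4% of the 557 other RNAs. The bright ribosomal protein genes resembled other bright probes in this. The difference of slide 3 from NS rats 6, 7 and 10 ran from -0.89 in Rpl6 to 1.08 in Rpl27l2, and its median absolute size in the genes was 0.19, against 0.27 over all RNAs. It was larger than the difference between MT and NS without slide 3 in 59 of the 75 genes (78.7%) and in 72.3% of all RNAs. The slide 3 difference uses fewer rats and a separate normalization, so this count does not compare like with like. The genes named next for slide 3 were chosen after their values were seen.

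Genes of both subunits were low on slide 3. Rps23, which sits at the decoding centre, read 14.39 and 14.43 in NS rats 8 and 9, and between 14.85 and 15.22 in the other 8 rats. Its difference between MT and NS was 0.26 with all rats and 0.00 without slide 3. Against the other NS rats, slide 3 differed by -0.61 in Rps12, by -0.58 in Rpl10, which joins the large subunit late in its assembly, and by -0.53 in Rps2, near the mRNA entry of the small subunit. Rps26 and Rpl36al1, a gene named as a copy of Rpl36a, were both below all other rats on slide 3 as well, and their differences between MT and NS of 0.25 and 0.22 became 0.07 and 0.07 without it.

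Other genes were high on slide 3. Rplp2, an acidic protein of the stalk, read 16.66 and 16.40 in NS rats 8 and 9, and between 15.80 and 16.08 in the other 8. Its difference between MT and NS was -0.20 with all rats and 0.08 without slide 3. Rpl13a, which is used as a reference gene, read 15.27 and 15.21 on slide 3, and between 14.59 and 14.91 in the others. Its 2 probes, 1 of them spotted 10 times, gave differences from the other NS rats of 0.55 and 0.54, while the spots of the second varied on an array with a median SD of 0.06. Rpl29 was higher by 0.54. Rpl27l2, named as a copy of Rpl27, had the largest shift but was dim, with a probe well above background in 3 of 5 MT rats and 2 of 5 NS rats, and its difference between MT and NS of -0.50 (SE 0.33) became -0.12 without slide 3. It was also -0.20 in the deposited table, -0.09 with 75th percentile scaling and -0.05 with normexp background correction.

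**Figure D3:**
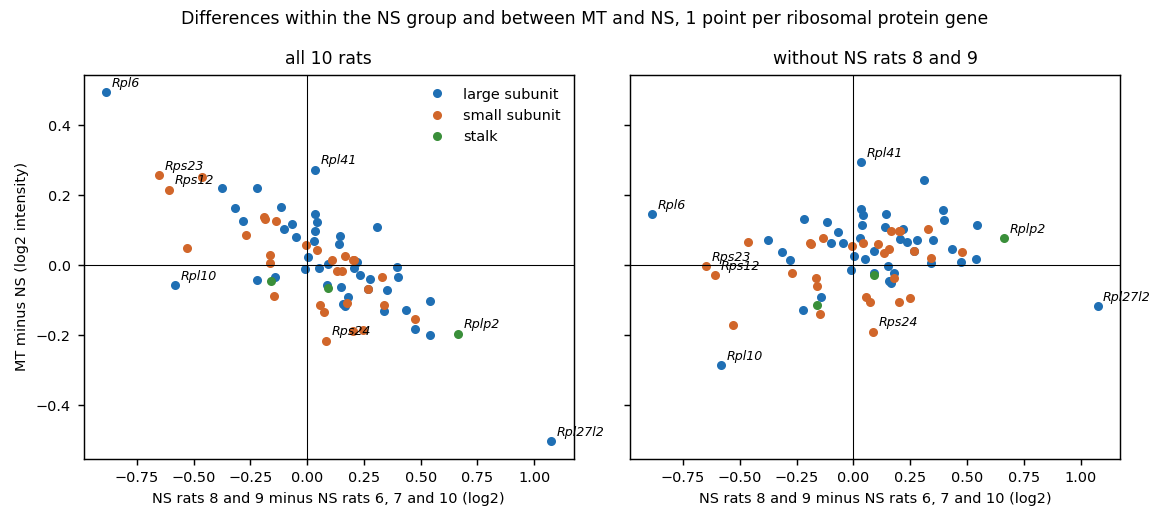
The difference between MT and NS (y axis, log2) against the difference of NS rats 8 and 9 from NS rats 6, 7 and 10 (x axis, log2), 1 point per ribosomal protein gene, with all 10 rats (left) and without NS rats 8 and 9 (right). Both axes use the same NS arrays, so a slope is built in and is not a result; Rpl6, Rps23, Rps12, Rplp2 and Rpl27l2 lie at the ends of the x axis and move toward 0 on the y axis in the right panel, or past it, while Rpl41 and Rps24 stay.

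Without slide 3, no gene passed the test in the comparison of 5 MT with 3 NS rats. Of the 75 genes, 0 passed an adjusted p of 0.05 in limma (0.00987% of all RNAs did) and 0 met the study's criteria (3.13% of all RNAs). At an unadjusted P below 0.05, 1 was higher, Rpl38 at 0.24, and 2 were lower, Rpl10 at -0.28 and Rps24 at -0.19, which is 4% of the genes. Over all RNAs the share was 18.3%, with 8.83% higher and 9.46% lower. Rpl38, a large subunit protein known for its role in the translation of Hox mRNAs, had an adjusted p of 0.22, and Rpl10 one of 0.26. The sign of the difference changed in 26 of the 75 genes (34.7%, and 26.8% of all RNAs), and the median moved from -0.01 to 0.04, beside 0.01 over all RNAs.

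None of the genes used as references or read as markers of the pathway passed the test. Rpl32, a common reference gene, ran from 15.47 to 15.71 in MT and from 15.43 to 15.53 in NS, a difference of 0.12 (95% interval from -0.02 to 0.26). Rps6, the substrate that S6 kinases phosphorylate, differed by 0.03 (-0.14 to 0.20), and Rpsa, the small subunit protein also known as the laminin receptor precursor, by 0.02 (-0.22 to 0.25). The signs of Rps6 and Rpsa turned with normexp background correction, to -0.01 and -0.06, and that of Rpsa also with 75th percentile scaling, to -0.04. Rpl13a differed by -0.20 (-0.52 to 0.12) with an SD of 0.30 in NS and 0.14 in MT (n = 5 each). The arrays measured the mRNAs, and neither the phosphorylation of Rps6 nor translation was measured.

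No gene named as a copy passed the test. The 6 such genes, Rpl22l1, Rpl27l2, Rpl36al1, Rpl37l1, Rps12l4 and Rps4y2, were all tested, with a median of -0.05, 2 above 0 and 4 below. Rpl22l1, a paralog of Rpl22, differed by 0.07 (SE 0.06), and Rps4y2 on chromosome 4 by -0.19 (SE 0.09, adjusted p = 0.35 in limma). Copies limit all values here: RefSeq names 1019 genes or pseudogenes after 71 of the 76 genes with a copy suffix, with a median of 14 per gene and up to 36 for Rps2, and a probe cannot be taken to read 1 of them alone.

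From rat to rat, more pairs of the genes were positively than negatively correlated. The mean deviation of the 75 genes from their own means was 0.04, -0.07, 0.11, -0.04 and -0.03 in MT rats 1 to 5, and -0.01, 0.01, 0.05, 0.01 and -0.08 in NS rats 6 to 10. MT rat 3 was the highest of these and NS rat 10 the lowest, so both ends were single rats and the groups covered each other (mean 0.00, SD 0.07 in MT and mean 0.00, SD 0.05 in NS, n = 5 each). MT rat 3 gave the highest value of all 10 rats in 32 of the 75 genes, NS rat 8 in 24, and NS rat 10 the lowest in 22. These counts have no share over all RNAs beside them, so they are not shown to be particular to these genes. In MT rat 3 the large subunit with the stalk stood at 0.10 and the small subunit at 0.13. The large subunit was above the small in NS rats 8 (0.08 and 0.01) and 9 (0.04 and -0.02), and below it by a similar gap in NS rats 6 (-0.03 and 0.03) and 7 (-0.02 and 0.05). Over all pairs of genes the median Pearson r across the 10 arrays was 0.24, and it was 0.49 across the 8 arrays of slides 1 and 2. These correlations describe arrays that share slides and a common normalization, and they are given for these genes only.

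**Figure D4:**
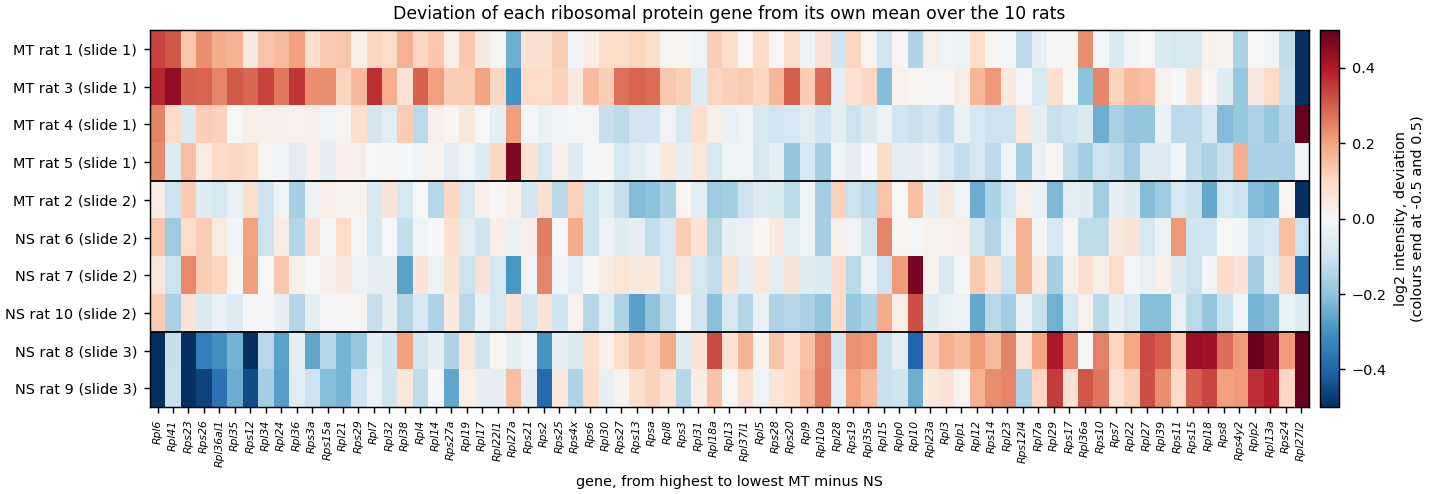
The deviation of each of the 75 ribosomal protein genes (x axis, in order of the difference between MT and NS) from its own mean over the 10 rats, in log2 intensity (colour, ending at -0.5 and 0.5), for each rat (y axis, grouped by slide). MT rat 3 is above the mean in 61 of the 75 genes, a count given for these genes only. NS rats 8 and 9 are low in the genes at the left end and high in those at the right end. The order of the genes uses NS rats 8 and 9, so their pattern along it is partly built in and is not a result.

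Other genes of translation were set beside the ribosomal proteins, from lists fixed by name. None of the 6 lists held an RNA past an adjusted p of 0.05 in limma. At an unadjusted P below 0.05, 15 of their 174 RNAs were higher (8.62%) and 8 lower (4.6%), beside 6.84% and 9.53% of all RNAs. Of 58 tested mitochondrial ribosomal proteins, which build the separate ribosome of mitochondria, 2 were higher and 3 lower at that P, with a median of -0.05. Of the 33 RNAs of translation initiation factors, 4 were higher and 0 lower, with a median of 0.05. Those 4 were Eif1a (0.38), Eif1 (0.23), Eif5a (0.20) and Eif1ad (0.16), named after their values were seen, as were the next 3 genes. Of the 21 RNAs of other TOP mRNAs, 3 were higher and 0 lower, with a median of -0.03. The 3 higher were the elongation factors Eef1a1 (0.27) and Eef2 (0.27), and the histone chaperone Nap1l1 (0.21). Other elongation factor genes of this list, Eef1d (0.11), Eef1b2 (-0.06) and Eef1g (-0.04), did not reach that P. Without slide 3 the difference was 0.20 for Eif1a, 0.18 for Eef1a1 and 0.11 for Eef2, and within slide 2 it was 0.0063 for Eef1a1. Ribosome biogenesis factors gave 2 higher and 3 lower of 36 (median -0.04). RNA polymerase I with its factors, which makes the ribosomal RNA, gave 3 higher and 2 lower of 14 RNAs from 12 genes (median -0.01). The higher ones were Polr1e and both RNAs of Ubtf, also named after their values were seen. The list of mTORC1 and the S6 kinases also held Myc, Mycn, Maf1 and Pdcd4. Of its 16 genes 1 was higher, Myc, and 0 were lower, with a median of 0.00.

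In these lists, 3 of the 174 RNAs met the study's criteria (1.72%), beside 2.74% of all RNAs. Myc, a transcription factor that drives ribosomal genes, read 8.23, 7.93, 8.03, 8.33 and 7.96 in MT rats 1 to 5, and 7.73, 7.35, 7.65, 7.24 and 6.91 in NS rats 6 to 10. The groups did not overlap, and the difference was 0.72 (SE 0.16, adjusted p = 0.097 in limma), 0.74 without NS rats 8 and 9 and 0.60 within slide 2. Mrpl30, of the mitochondrial large subunit, was at the low end of the signal, between 3.02 and 4.60 in MT and between 1.46 and 3.39 in NS, a difference of 0.93 (SE 0.39, adjusted p = 0.28) that was 0.56 without slide 3, 1.46 within slide 2 and 0.10 with normexp. Its probe was well above background in 4 MT rats and 1 NS rat, so it entered the test mainly through the group where it was higher. Heatr1, which acts in ribosomal RNA synthesis, was also dim (well above background in 4 MT and 2 NS rats), between 2.60 and 3.32 in MT and between 3.07 and 4.43 in NS. Its difference of -0.62 (SE 0.26, adjusted p = 0.29) was -0.25 without NS rats 8 and 9, its 2 highest rats, -0.22 with 75th percentile scaling, -0.05 with normexp and 0.0063 within slide 2.

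**Figure D5:**
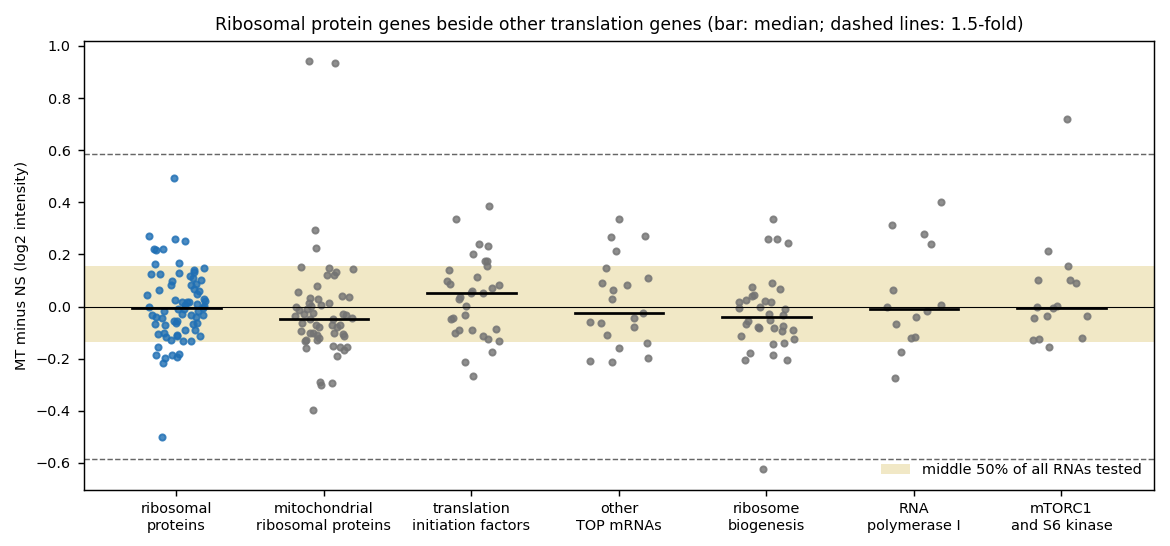
The difference between MT and NS in log2 intensity (y axis) for the 75 ribosomal protein genes (blue) and the RNAs of 6 other lists (grey), 1 point per RNA, with the median of each list as a bar. The band is the middle 50% of all RNAs tested, from -0.14 to 0.16, and dashed lines are 1.5-fold; every median lies inside the band, and Myc at 0.72 is the one point of its list beyond a dashed line.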

How the data were processed

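Per the labels, total RNA was freed of ribosomal RNA, labelled with random primers and hybridized to Agilent one-colour arrays. The authors read the spots with Agilent Feature Extraction 11.0.1.1 and deposited background-subtracted intensity values per spot on a linear scale, and 1 table of quantile-normalized log2 intensities, used here as an alternative. From the 42136 spots of an array that were not controls, intensities were raised to at least 1, log2 transformed and normalized by quantiles (R 4.3.3, limma 3.58.1). Outlier spots were left out, and spots were averaged to probes and RNAs. Probes needed over 50% of their spots flagged as brighter than background on 5 or more arrays. For the study's criteria, fold was taken on the linear scale. MT was compared with NS by linear models with empirical Bayes moderation, and 2 of the 20286 RNAs kept had too few values for a test. Genes were named and placed by RefSeq accession in GRCr8, and the array was designed on the older rn4, so positions are those of genes. Normalization removes any change that all RNAs share.

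The genes and lists were chosen with earlier results of these data known. Genes named were the 6 with the largest and the 6 with the smallest difference, the stalk genes, Rpsa, Rps6, reference genes, paralogs and list members past the study's criteria. Rps18 was not analysed here. Others are marked in the text as chosen after their values were seen. Alternatives were 75th percentile scaling, normexp correction with an offset of 50 (on the median spot signal, since the mean signal was not used here), the deposited table, no filter or a filter on all 10 arrays, outlier spots kept, saturated spots left out, the methods' Student test, a variance trend, array weights, single probes, slide blocks (fixed and random), values within slide 2, and arrays left out. The steps were tested on simulated arrays, which had no slide effect and so do not test the fit under one. Plots used Python 3.11.15 with matplotlib 3.10.9. The number of arrays limits the precision.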

Additional observations from a re-analysis of the deposited data

Results flagged for a closer look

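In 3 of the 44 groups of 5 rats examined, 1 rat stood apart from the other 4, and chance marks about 1 group in 20. For Rps24, MT rat 2 read 15.44, and the other 4 MT rats lay between 15.26 and 15.31. For Rps4y2, MT rat 5 read 11.03, and the other 4 MT rats lay between 10.66 and 10.74. For Mrpl30, NS rat 9, which is on the slide with the weakest signal, read 1.46, while 2.98 to 3.39 was the range of the remaining 4.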

How the results depend on the processing

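No ribosomal protein gene and no RNA of the other lists passed an adjusted p of 0.05 in limma under any alternative, the methods' Student test included, while the number of all RNAs past it ran from 0 to 183. No paired analysis was possible because the groups share no replicate numbers. The count of genes lower at an unadjusted P below 0.05 was 2 with 75th percentile scaling, the filter on all 10 arrays, the Student test, the variance trend, array weights and without slide 3, 3 with normexp, and 0 with slide blocks of either kind, fixed or random. The count of genes higher was 1 without slide 3 and 0 with both blocks. Leaving out 1 rat gave 0 (MT rat 1 or 3) to 5 (MT rat 2 or NS rat 7) higher, with 1 without MT rat 5, NS rat 8 or NS rat 9, 1 to 2 lower (2 without MT rat 3 or 5 or NS rat 7 or 10), 0 to 1 past the study's criteria (Rpl6, without NS rat 6 at 0.59 or NS rat 10 at 0.59), and medians from -0.038 to 0.018 for the genes, -0.031 to 0.016 for the large subunit with the stalk, -0.053 to 0.033 for the small subunit and -0.042 to -0.0026 for the other lists. In those lists, leave-one-out fits left 1 (without MT rat 3 or 5 or NS rat 9) to 3 RNAs past the study's criteria and 0 past the adjusted threshold, normexp left 0, and the all-array filter, the Student test and the fixed block left 1. The median was -0.064 for the small subunit within slide 2 and with the fixed block, which rests on that slide's 4 arrays, and without slide 3 it was 0.064 for the large subunit with the stalk and 0.045 for the other lists. Signs turned with 75th percentile scaling in Rplp0 (0.0001), Rplp1 (0.030) and Rpsa (-0.040), with normexp in Rpsa (-0.065) and Rps6 (-0.0075), with the fixed block in Rpl6 (-0.068), Rps26 (-0.12), Rpl36al1 (-0.12), Rpl35 (-0.012), Rpsa (-0.12), Rps6 (-0.028) and Heatr1 (0.0063), with the random block in Rpsa (-0.060) and Rps6 (-0.010), and without slide 3 in Rps23 (-0.0027), Rpl13a (0.018) and Rplp2 (0.077). Leaving out 1 rat turned Rpsa (range -0.053 to 0.069), Rps6 (-0.009 to 0.058) and Rplp0 (-0.078 to 0.0024). The fixed and random blocks call few RNAs of any kind (4.08% and 7.01% at an unadjusted P below 0.05), and 1 MT array lies on a slide with NS arrays. The cause of the turned signs was not tested.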
